A study of Rattus norvegicus with 12 samples.

Results

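The mevalonate arm of cholesterol synthesis was examined through 7 genes, Acat2, Hmgcs1, Mvk, Pmvk, Mvd, Idi1 and Fdps, in cultures of rat oligodendrocyte precursor cells (OPCs) exposed to inflammatory cytokines and to galinex. The 7 genes were chosen by symbol, of 30562 genes in the count tables, and they do not cover every step of the arm. All 7 were among the 13348 genes tested, those that averaged at least 5 counts over the 12 libraries. The tables hold Ensembl identifiers without symbols, so the symbols were taken by a numeric match to the study's list of genes called in CTK-2 versus CTL. A gene outside that list could not be named, and every call in CTK-2 versus CTL of a gene named here follows from that choice. Values of that comparison are a description and support nothing.

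The OPCs came from cortices of wild-type Sprague-Dawley pups of both sexes, taken at postnatal days 0 to 2, and were shaken off mixed glial cultures. The cultures were then switched to a medium without growth factors that contained the thyroid hormone T3 and lets OPCs mature into oligodendrocytes. CTL received neither cytokines nor galinex. CTK-2 received a cocktail of IFN-γ, TNF-α and IL-1β, with 2 ng/mL of every cytokine, and GAL received galinex, an agonist of the receptor GPR17, at 10 nM. CTK2+GAL received both, with galinex added 6 h after the cytokines, and cells without galinex received its solvent DMSO. RNA was taken 24 h after galinex from 3 cultures per group, and nothing in the labels says whether the 3 came from separate litters, so the p-values measure the spread between these libraries.

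Cells build cholesterol from acetyl-CoA. In the mevalonate arm, acetyl units are joined and reduced to mevalonate, which is phosphorylated, decarboxylated and condensed to farnesyl pyrophosphate. Farnesyl pyrophosphate leads to squalene and cholesterol, and also to the prenyl groups that anchor small GTPases in membranes and to dolichol and ubiquinone. Genes of the pathway are known targets of the sterol-sensing SREBP transcription factors. Oligodendrocytes need much cholesterol, a major lipid of myelin, and in the brain it is made locally.

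Library totals lay between 2600797 counts in GAL replicate 1 and 8978185 in CTK2+GAL replicate 3, and the other 10 lay between these values. The 7 genes were well counted, from 115 counts for Pmvk in its lowest library to 9562 for Hmgcs1 in its highest. Of 13 lineage markers, 6 had a symbol, and 5 of these are described. A marker that the cytokines left unchanged could not have a symbol, so these values do not show how the lineage markers moved as a whole. The precursor markers Pdgfra, Cspg4 and Nkx2-2 were higher in CTK2+GAL than in GAL (log2 fold change 0.77, 2.04 and 0.79), and the myelin genes Mag and Mog were lower (-1.003 and -0.98). The adjusted p of these 5 markers in edgeR's quasi-likelihood test was at most 0.00143. CTL replicate 3 and GAL replicate 3 stood apart from the other libraries without cytokines. The summed level of 9 interferon and cytokine response genes was 305 and 266 CPM (counts scaled to library size by TMM) in these libraries, between 9.88 and 12.7 CPM in the other 4 and between 2713 and 2901 CPM in the 6 libraries with cytokines. In CTL replicate 3 most of this sum was Tap1 (207 CPM) and Irf1 (77.0 CPM). GAL replicate 3 likewise had 182 CPM of Tap1 and 65.3 CPM of Irf1. Ifit3, also of the 9, was not raised in either library. The calls in CTK2+GAL versus GAL, the value of Pmvk in CTK-2 versus CTL, the galinex values that turn sign and the number of gene pairs that passed are given with and without CTL replicate 3 and GAL replicate 3. The levels per kilobase, confidence intervals and correlations include them.

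By the files' mRatBN7.2 build with Ensembl release 112, Acat2 (ENSRNOG00000019189), the cytosolic thiolase that joins 2 molecules of acetyl-CoA, lies on chromosome 1 from 47695788 to 47752821 on the plus strand. Hmgcs1 (ENSRNOG00000016552), the cytosolic synthase that makes HMG-CoA, lies on chromosome 2 from 51649497 to 51667100 on the plus strand. Mevalonate kinase, Mvk (ENSRNOG00000049604), lies on chromosome 12 from 42141384 to 42158882 on the minus strand, and phosphomevalonate kinase, Pmvk (ENSRNOG00000020696), on chromosome 2 from 174876657 to 174886364 on the plus strand. Mvd (ENSRNOG00000013376), the decarboxylase that makes isopentenyl pyrophosphate, lies on chromosome 19 from 50496367 to 50507971 on the minus strand. Idi1 (ENSRNOG00000016690), the isomerase that gives dimethylallyl pyrophosphate, lies on chromosome 17 from 61629594 to 61637357 on the minus strand. Fdps (ENSRNOG00000043377), the farnesyl pyrophosphate synthase, lies on chromosome 2 from 174486665 to 174507776 on the minus strand. Fdps and Pmvk thus lie in the same region of chromosome 2 but are not adjacent, with a gap of 369 kb that holds 29 other genes. Hmgcs1 lies elsewhere on chromosome 2, and the other members lie on other chromosomes. None of the 7 shares exon positions with another gene on its own strand. Mvd and Idi1 each overlap the exons of 1 gene on the opposite strand, which strand-specific counting keeps apart.

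Promoter windows were available for 6 of the 7 genes, all but Pmvk, from RefSeq on the GRCr8 build. Each window runs from 250 bases before to 50 bases after the start of the gene. The windows of 3 genes are printed because Hmgcs1 and Acat2 showed the largest falls of the 7 genes and Mvk a smaller one, and because their motif counts differ. They lie at chr2:53382054-53382353 on the plus strand for Hmgcs1, chr1:50100590-50100889 on the plus strand for Acat2 and chr12:47819454-47819753 on the minus strand for Mvk. Each is given 5′ to 3′ on the gene's strand, and capitals mark the box CCAAT, bound by NF-Y, and the box GGGCGG, bound by Sp1, or the reverse complement of either.
Hmgcs1: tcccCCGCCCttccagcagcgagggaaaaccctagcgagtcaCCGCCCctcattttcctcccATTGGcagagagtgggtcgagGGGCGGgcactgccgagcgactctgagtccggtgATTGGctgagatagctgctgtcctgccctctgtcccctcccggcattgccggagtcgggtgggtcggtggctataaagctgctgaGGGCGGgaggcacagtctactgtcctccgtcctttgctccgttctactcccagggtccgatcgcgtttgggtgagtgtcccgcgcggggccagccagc
Acat2: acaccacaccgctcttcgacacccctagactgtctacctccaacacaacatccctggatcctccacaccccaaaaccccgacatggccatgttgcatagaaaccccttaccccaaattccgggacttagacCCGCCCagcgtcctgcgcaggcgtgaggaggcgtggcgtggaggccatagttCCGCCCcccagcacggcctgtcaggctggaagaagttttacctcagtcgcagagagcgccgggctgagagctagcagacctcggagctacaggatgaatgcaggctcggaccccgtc
Mvk: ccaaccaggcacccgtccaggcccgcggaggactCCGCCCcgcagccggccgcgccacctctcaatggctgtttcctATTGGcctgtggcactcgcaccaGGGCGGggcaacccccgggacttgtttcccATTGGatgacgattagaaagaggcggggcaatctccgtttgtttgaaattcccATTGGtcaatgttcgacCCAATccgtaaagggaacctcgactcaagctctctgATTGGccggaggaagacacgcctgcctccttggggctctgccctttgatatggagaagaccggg
The Hmgcs1 window held 2 CCAAT boxes and 4 GGGCGG boxes. Acat2 held 0 CCAAT boxes and 2 GGGCGG boxes, and Mvk held 5 and 2. At least 2 CCAAT boxes were found in 5 of the 6 windows, that is in Hmgcs1, Mvk, Mvd, Idi1 and Fdps, against 11.2% of the 33469 windows of all genes. At least 1 CCAAT box was found in the same 5 of 6, against 37.5% of all windows. At least 1 GGGCGG box was found in 5 of 6, all but Idi1, against 33.1% of all windows. At least 2 GGGCGG boxes were found in 4 of 6, against 17% of all windows. The sterol regulatory element was searched as TCACNCCAC on both strands, which does not overlap the other boxes. It was found in 0 of the 6 windows and in 1.12% of all windows, which says only that these letters are not in these stretches of 300 bases.

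Without cytokines, Hmgcs1 was the most abundant of the 7 genes. Levels are comparable between genes only per length, and per kilobase of annotated exon the mean of CTL was 397 ± 34.2 CPM for Hmgcs1 (SD, n = 3). Idi1 (88.3 ± 5.05 CPM per kilobase), Acat2 (86.4 ± 7.21) and Fdps (80.6 ± 8.35) followed and did not differ beyond their spread. Mvk was at 71.2 ± 3.07, Mvd at 45.0 ± 4.39 and Pmvk at 33.7 ± 6.49 CPM per kilobase. In CTK2+GAL, Hmgcs1 still stood highest at 175 ± 7.25 and Pmvk lowest at 21.9 ± 0.640 CPM per kilobase, and Idi1, Mvk, Fdps and Acat2 lay close together between 39.1 and 48.4. The annotated exon length joins all transcripts of a gene, so the level per kilobase is a lower value where a long transcript is little used.

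The cytokines were compared in the presence of galinex, in 6 libraries that the study's list did not compare, and all 7 mevalonate genes fell. The falls ran from 38.7% for Mvk to 57.6% for Acat2. No library of CTK2+GAL reached the level of any library of GAL for any of the 7. By edgeR's quasi-likelihood test, 7 of 7 were called lower, where a call needs an adjusted p of at most 0.05 over all tested genes and a log2 fold change of at least 0.59 in size. Of all tested genes, 5.74% were called lower in this comparison and 24.0% were lower without overlap of libraries. The 7 genes entered through their call without galinex, and galinex called 0% of all tested genes. The 7 of 7 calls are therefore not independent of that choice. The median log2 fold change of the 7 genes was -0.96, beside 0.01 over all genes tested. The size of this median also follows in part from that choice. In cultures, fewer cells of a maturing type and less RNA per cell cannot be told apart in such levels.

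The first steps of the arm fell most. The level of Acat2 was 442, 470.3 and 424 CPM in GAL replicates 1 to 3 and 184, 186 and 196 CPM in CTK2+GAL. Its log2 fold change was -1.24 ± 0.07 (SE, edgeR, adjusted p = 8.71e-11). Hmgcs1 stood at 1489, 1601 and 1429 CPM in GAL and at 623, 631 and 672 CPM in CTK2+GAL. The gene therefore was at 0.426 times its GAL level in CTK2+GAL, with a log2 fold change of -1.23 ± 0.06 (SE, edgeR, adjusted p = 3.74e-11).

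The kinases fell least. For Mvk, GAL gave 136, 138 and 145 CPM and CTK2+GAL gave 81.5, 88.6 and 87.0 CPM, a log2 fold change of -0.71 ± 0.06 (SE, edgeR, adjusted p = 1.87e-08). For Pmvk, the gene with the fewest counts, the levels were 45.4, 45.6 and 40.6 CPM in GAL and 26.2, 25.9 and 24.8 CPM in CTK2+GAL. Its log2 fold change was -0.77, and its SE of 0.12 was the widest of the 7 (edgeR, adjusted p = 6.58e-05). The lowest GAL library lay well above the highest CTK2+GAL library for both kinases.

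The last steps lay between. Mvd was at 143, 137 and 138 CPM in GAL and 69.6, 75.8 and 72.1 CPM in CTK2+GAL, a log2 fold change of -0.94 ± 0.07 (SE, edgeR, adjusted p = 3.84e-09). Idi1 was at 241, 287 and 269.7 CPM in GAL and 129, 129 and 152 CPM in CTK2+GAL, a log2 fold change of -0.96 ± 0.08 (SE, edgeR, adjusted p = 9.62e-09). Its replicates scattered most of the 7 genes in these 2 groups by coefficient of variation, with CTK2+GAL replicate 3 above the other 2. Fdps was at 581, 613 and 550.0 CPM in GAL and 278, 275 and 300.1 CPM in CTK2+GAL, a log2 fold change of -1.03 ± 0.07 (SE, edgeR, adjusted p = 3.08e-09).

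**Figure D1:**
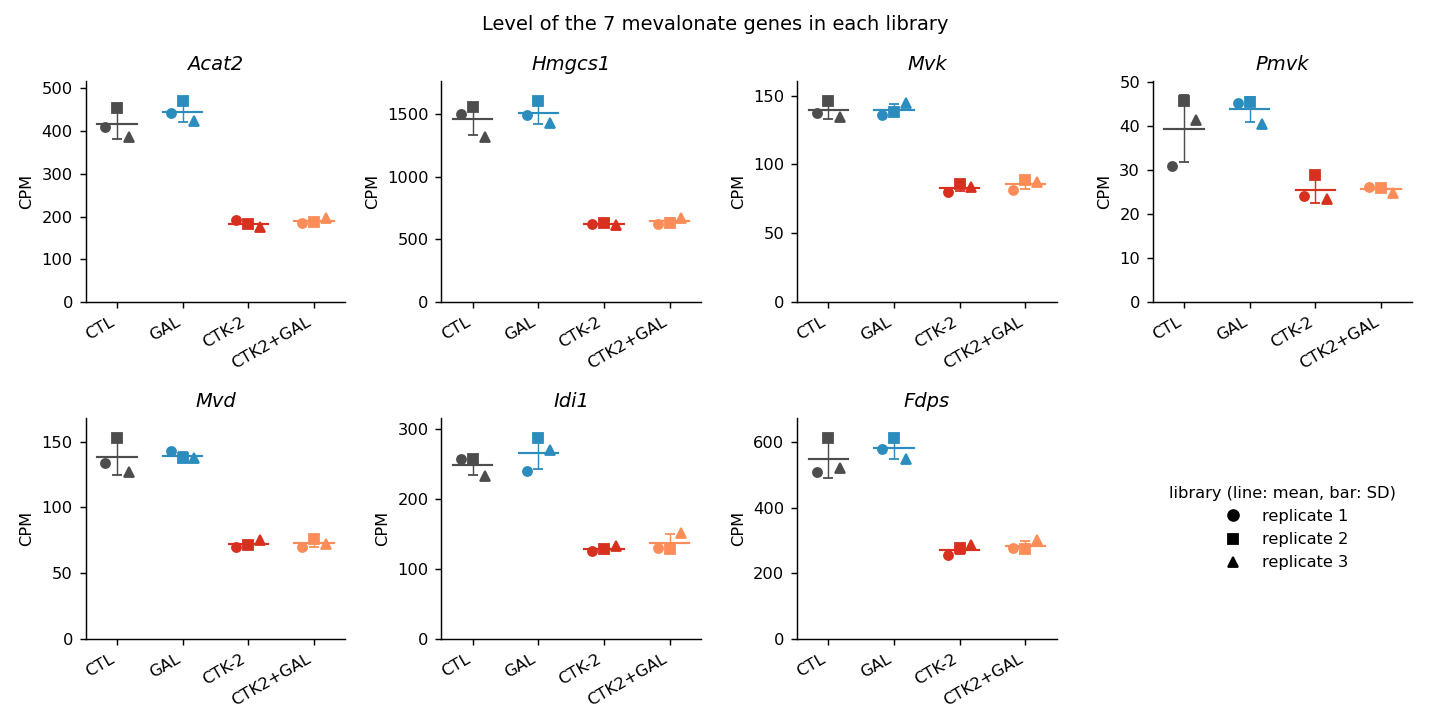
Level of each of the 7 genes in CPM in the 12 libraries, by group, with each library as a point, the mean as a line and the SD as a bar. In each panel the CTK-2 and CTK2+GAL libraries lie below all CTL and GAL libraries.

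Without galinex the levels of the 7 genes in CTK-2 lay below those in CTL, which is the comparison that gave them their symbols. Acat2 was at 409.6, 455 and 386 CPM in CTL and 191, 182 and 174 CPM in CTK-2, and Hmgcs1 at 1501, 1558 and 1318 against 622, 627 and 609.7 CPM. Mvk was at 137, 146 and 135 CPM against 80.3, 85.6 and 83.7 CPM, and Mvd at 134, 153 and 127 against 69.9, 71.2 and 74.9 CPM. Idi1 was at 258, 257 and 233 CPM against 125, 128 and 132 CPM, and Fdps at 509, 613 and 522 against 256, 275 and 285 CPM. The log2 fold changes of these 6 genes were -1.19 (Acat2), -1.24 (Hmgcs1), -0.74 (Mvk), -0.93 (Mvd), -0.96 (Idi1) and -1.01 (Fdps), with SEs from 0.06 to 0.08. The 7 of 7 calls here were fixed by the choice of genes with a symbol, and nothing is read from them. Of all tested genes, 5.79% were called lower and 23.8% were lower without overlap.

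Pmvk was the member just inside the threshold in that comparison. It was at 31.0, 45.7 and 41.5 CPM in CTL and 24.1, 28.9 and 23.5 CPM in CTK-2, with CTL replicate 1 close to the highest CTK-2 library, and its log2 fold change was -0.62 ± 0.13 (SE). The size of the fold change fell short of 0.59 without CTL replicate 2 (-0.51), CTL replicate 3 (-0.57), CTK-2 replicate 1 (-0.58) or CTK-2 replicate 3 (-0.56), without CTL replicate 3 and GAL replicate 3 together (-0.57), and with library totals in place of TMM scaling (-0.59 after rounding, just under the threshold). In CTK2+GAL versus GAL, the log2 fold change of Pmvk lay between -0.83 and -0.73 over all settings and left-out libraries tried.

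The members were also compared within groups, because replicate 3 of CTL and of GAL had the raised sum of response genes. In CTL, replicate 3 was the lowest of the 3 libraries for 5 of 7 genes, with a median log2 ratio of -0.15 to the mean of replicates 1 and 2. In GAL it was the lowest for 4 of 7, with a median log2 ratio of -0.11. In CTK-2 and CTK2+GAL, replicate 3 was the lowest for 3 and 1 of the 7 genes. The 7 genes were correlated within groups (median r = 0.47), so these counts are not separate results. The share over all genes is not given. Without CTL replicate 3 and GAL replicate 3, 7 of 7 genes were called lower in CTK2+GAL versus GAL, with log2 fold changes from -0.68 for Mvk to -1.27 for Acat2. Whether the raised response genes have a part in the lower levels was not tested.

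Markers of other cells are given beside the fall, as far as they had a symbol, which again required a call in CTK-2 versus CTL. Of 10 microglia markers, 4 had a symbol (Csf1r, P2ry12, C1qc and Ptprc), and their summed level was between 2.24 and 10.5 CPM in the 6 libraries without cytokines and between 18.5 and 24.3 CPM in the 6 with them. Without cytokines the sum was highest in CTL replicate 3 (9.73 CPM) and GAL replicate 3 (10.5 CPM). It was at most 4.37 CPM in the others without cytokines. In CTK2+GAL versus GAL, P2ry12, C1qc and Ptprc were called higher, and Csf1r was not (log2 fold change 0.61, edgeR, adjusted p = 0.396). The other 6 were not analysed here. Of the astrocyte markers only Aldoc, 1 of 7, had a symbol, and its log2 fold change was -0.68 in CTK2+GAL versus GAL. Tubb3, the 1 neuron marker of 5 with a symbol, had a log2 fold change of 1.01. The part of these cells and of the change in lineage markers in the fall of the mevalonate genes was not tested.

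Galinex was compared with its solvent in each background, which asks whether the agonist moved the pathway. In both backgrounds the levels of the 7 genes overlapped between the groups, as the values above show for every gene. In GAL versus CTL the log2 fold changes lay between 0.01 for Mvk and 0.15 for Pmvk, and edgeR's quasi-likelihood test called 0 of 7 (adjusted p from 0.997 to 1). In CTK2+GAL versus CTK-2 they lay between 0.00 for Pmvk and 0.09 for Idi1, and 0 of 7 were called (edgeR, each adjusted p rounded to 1). The call took 0% of all tested genes in each of these comparisons by edgeR and by DESeq2, while 574 and 545 genes had an unadjusted p under 0.05 in edgeR.

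The intervals show which sizes remain possible. For Hmgcs1 the 95% confidence interval of the change with galinex ran from -5.76% to 13.2% without cytokines and from -5.49% to 13.6% with them. For Pmvk, with its few counts, it ran from -6.58% to 32.1% and from -17.5% to 21.4%. Averaged over both backgrounds, Idi1 had the smallest unadjusted p of the 7 in edgeR, 0.0900, with a log2 fold change of 0.10 ± 0.05 (SE) and an adjusted p of 0.831, and 0 of 7 genes were called. DESeq2 also called 0 of 7. Of all tested genes, 0% were called in this average, and 822 had an unadjusted p under 0.05.

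All 7 log2 fold changes with galinex lay above 0 in each background, Pmvk under cytokines by so little that DESeq2 size factors put it below 0, beside 49.9% of all tested genes in GAL versus CTL and 50.3% in CTK2+GAL versus CTK-2. The genes are not independent of each other, and the values are small. Without CTL replicate 3 and GAL replicate 3, Mvk and Mvd lay below 0 in GAL versus CTL (-0.05 and -0.04). Leaving out CTL replicate 3 alone put Hmgcs1 (-0.02), Mvk (-0.02) and Mvd (-0.04) below 0.

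The cytokine effect was then compared between the backgrounds by the interaction term. Its log2 values lay between -0.15 for Pmvk and 0.04 for Mvk, with 95% confidence intervals that ran from -0.52 to 0.22 at the widest. For Hmgcs1 the interval was -0.18 to 0.19. The test called 0 of 7 genes (edgeR, each adjusted p rounded to 1) and 0% of all tested genes, of which 376 had an unadjusted p under 0.05. DESeq2 called 0 of 7 and 0 genes in all.

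**Figure D2:**
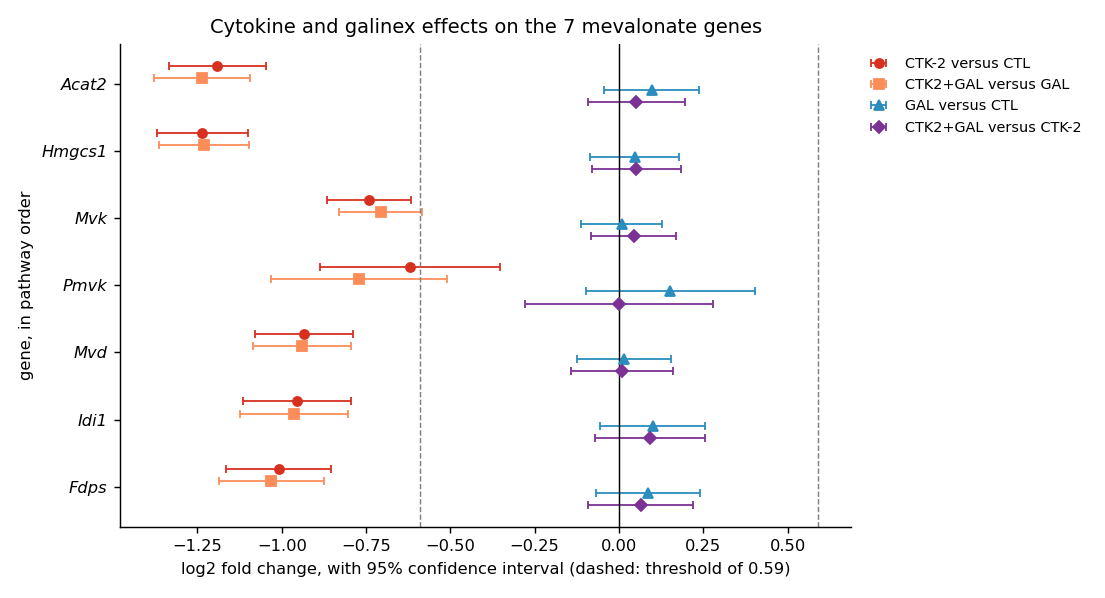
Log2 fold change of the 7 genes, in pathway order from top to bottom, in 4 comparisons, with 95% confidence intervals from edgeR and the threshold of 0.59 as dashed lines. The 2 comparisons of cytokines lie left of -0.59 for each gene, and each interval of the 2 comparisons of galinex includes 0.

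The members did not fall by the same amount, and ratios between them within a library were used to compare them, since scaling between libraries drops out. For each of the 21 pairs, the log2 ratio of counts was compared between libraries with and without cytokines by an exact permutation test, two-sided, with the cytokine labels exchanged among libraries with galinex and among those without it. The 400 arrangements allow no p below 0.005. After adjustment over the 21 pairs, the ratio shifted in 15 of 21 (smallest adjusted p = 0.00808, exact permutation test).

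These p-values have 2 limits. They rest in part on the CTL and CTK-2 libraries that gave the genes their symbols, and they treat same-numbered libraries as independent. In the 6 libraries with galinex alone, the 15 pairs each had p = 0.1, the smallest that an exact permutation test of 3 against 3 allows. With same-numbered libraries of the groups with and without galinex exchanged as 1 unit (20 arrangements), the 15 pairs again had p = 0.1, the smallest possible in that exact permutation test, as did Pmvk and Idi1. Neither test can pass a threshold of 0.05, so the passing of the 15 pairs depends on pooling both backgrounds as independent libraries.

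The count ratio of Hmgcs1 to Mvk was 10.9, 10.7 and 9.80 in CTL replicates 1 to 3 and 10.9, 11.6 and 9.88 in GAL. In CTK-2 it was 7.74, 7.33 and 7.28, and in CTK2+GAL 7.65, 7.12 and 7.73. The groups with and without cytokines did not overlap, and the log2 ratio shifted by -0.49 without galinex and by -0.52 with it (exact permutation test over both, adjusted p = 0.00808). Hmgcs1 also fell relative to Fdps, from ratios between 2.52 and 2.95 without cytokines to ratios between 2.14 and 2.43 with them, a shift of -0.21 on the log2 scale and of -0.20 with galinex (exact permutation test, adjusted p = 0.00808). The ratio of Acat2 to Pmvk shifted by -0.52 and by -0.47 with galinex (exact permutation test, adjusted p = 0.00808), from 9.30 or more in the libraries without cytokines to 7.96 or less in those with them.

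By the size of the fall in these same libraries, the 7 genes are described here in 3 groups. Passes of pairs across the groups therefore follow in part from the grouping and do not test it. A pair that did not pass the test is not shown to have fallen equally, and the passes carry the limits above. Acat2 and Hmgcs1 differed by a shift of 0.02 (exact permutation test, adjusted p = 0.636), and Mvk and Pmvk by -0.03 (adjusted p = 0.800, exact permutation test). Among the last steps, Mvd and Idi1 differed by 0.02, Idi1 and Fdps by 0.06 and Mvd and Fdps by 0.08 (exact permutation test, adjusted p = 0.787, 0.362 and 0.117). Every pair across these groups passed except Pmvk and Idi1, with a shift of 0.27 and an adjusted p of 0.0525 in the exact permutation test. The number of pairs that passed was between 14 and 16 when each of the 12 libraries was left out in turn, and 15 without CTL replicate 3 and GAL replicate 3.

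**Figure D3:**
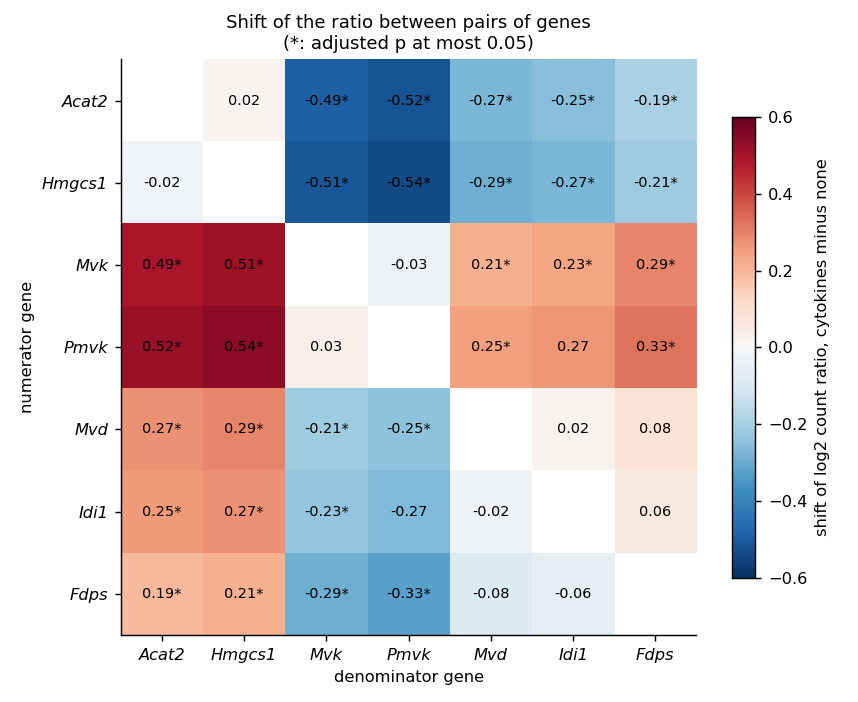
Shift of the log2 ratio of counts between pairs of the 7 genes, as the mean of libraries with cytokines minus that of libraries without, with the numerator in rows and the denominator in columns and a star where the adjusted p of the exact permutation test is at most 0.05. Acat2 and Hmgcs1 fell relative to each of the other 5 genes, and Mvk and Pmvk rose relative to Mvd and Fdps.

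The rest of the pathway was described through 56 other genes in 4 lists, of which 20 had a symbol. Since a symbol required a call in CTK-2 versus CTL, the lists hold no gene that did not change there, and their counts in that comparison (17 lower and 3 higher) follow from the choice. In CTK2+GAL versus GAL, 17 of the 20 were called lower, 2 higher and 1 was not called. Of all tested genes, 5.74% were called lower there. Galinex called 0% of all tested genes, so these counts too are not independent of that choice. From squalene to cholesterol, 10 of 13 genes had a symbol and 10 fell. Their log2 fold changes lay between -1.57 and -0.72 with the median at -0.94, beside -0.96 for the mevalonate genes. Both sets hold only genes past the fold threshold in CTK-2 versus CTL, so nothing is read from the likeness of these medians.

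Tm7sf2, a sterol reductase of the late pathway, fell most, from 52.0, 52.9 and 53.6 CPM in GAL to 17.3, 16.3 and 19.3 CPM in CTK2+GAL. Cyp51, which removes a methyl group from lanosterol, fell from 552, 569 and 523 CPM to 253, 249.95 and 255 CPM, a log2 fold change of -1.12 ± 0.06 (SE, edgeR, adjusted p = 3.42e-11). Fdft1, the squalene synthase that uses the product of Fdps, fell by 0.72 on the log2 scale, the smallest change of the list. Sqle, Lss, Msmo1, Nsdhl, Hsd17b7 and Dhcr7, further enzymes on the way to cholesterol, had log2 fold changes of -0.84, -0.74, -0.94, -0.93, -1.30 and -0.93.

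Genes that supply acetyl-CoA fell as well. Acly, which makes cytosolic acetyl-CoA from citrate, had a log2 fold change of -0.81, and Aacs, which activates acetoacetate, of -0.66. These were the 2 of 6 genes of acetyl-CoA supply with a symbol, and both were called lower. In the list of prenyl and neighbouring steps, 3 of 19 had a symbol and 2 were called lower, among them Fnta, the shared subunit of the protein prenyltransferases, at -0.83. Rabggta, a subunit of the enzyme that prenylates Rab proteins, had a log2 fold change of 0.588 ± 0.09 (SE, edgeR, adjusted p = 5.29e-05), just under the threshold.

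Genes of sterol sensing, uptake and export moved in both directions. Of 18, 5 had a symbol, and 3 were called lower and 2 higher. Insig1, which holds SREBP in the endoplasmic reticulum and is itself a sterol-regulated gene, fell from 381, 395 and 371 CPM in GAL to 194, 170.2 and 198 CPM in CTK2+GAL. Stard4, which carries cholesterol between membranes, had a log2 fold change of -0.98. Nr1h2, the oxysterol receptor LXRβ, rose by 0.96, and Abcg1, an exporter of cholesterol and a known LXR target, rose from 6.21, 6.87 and 7.73 CPM to 21.4, 20.1 and 17.4 CPM, a log2 fold change of 1.45 ± 0.15 (SE, edgeR, adjusted p = 2.63e-07). Among the pathway genes with a symbol, the 2 called higher were a sterol receptor and an exporter. The 17 called lower include 10 enzymes from squalene synthase on.

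**Figure D4:**
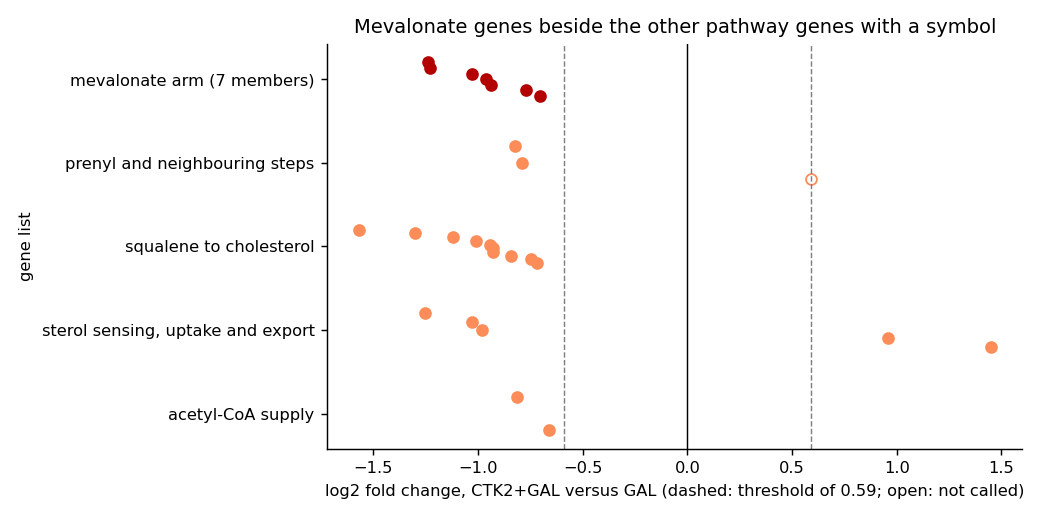
Log2 fold change in CTK2+GAL versus GAL of the 7 mevalonate genes and of the 20 other pathway genes with a symbol, 1 point per gene, by list, with the threshold of 0.59 as dashed lines and an open point for the gene that was not called. The 7 members and 17 other genes lie left of -0.59, and 2 genes lie right of 0.59.

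The genes whose levels followed the mevalonate genes most closely were searched among genes with a symbol. Likeness was the Pearson correlation over the 12 libraries with the mean standardised log2 CPM of the 7 members, and it is a description, since the libraries share the cytokine contrast. Phyhipl (r = 0.997), Rnd2 (0.996), Pnlip (0.996), Dynll2 (0.996), Tspan3 (0.995), Sec23a (0.995) and Cyp51 (0.995) were among the 8 highest. Of 13341 genes, 1287 had an r above 0.9, so that a high value is common when the groups differ.

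With the group means removed, the spread within groups was compared. Lgmn (r = 0.937), Cdkn1c (0.923), Atp5f1b (0.916), Dynll2 (0.915), Rnd2 (0.907), Mif (0.899), Cox6c (0.885) and Tm7sf2 (0.869) were the 8 highest among genes with a symbol, over 12 libraries that share depth and group. Among all tested genes other than the members, these 8 ranked from 9 (Lgmn) to 96 (Tm7sf2), so most of the closest genes had no symbol. Tm7sf2 was the 1 enzyme of cholesterol synthesis among the 8, and enzymes without a symbol could not be seen. Between the 7 members themselves, the correlation within groups ran from -0.22 for Pmvk and Idi1 to 0.88 for Acat2 and Hmgcs1, with a median of 0.47 over the 21 pairs. Acat2 and Hmgcs1, whose ratio did not pass the test above, thus also varied most closely together between replicates. Over the 7 members, the mean standardised deviation from the group was largest in size in CTL replicate 2 (1.57) and CTL replicate 3 (-1.07). The correlations within groups thus lean in part on CTL.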

How the data were processed

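RNA of 12 OPC cultures was sequenced. The deposited counts are read pairs per gene, without normalization or filtering. Per the file headers, the authors counted with featureCounts 2.0.0 on exons of Ensembl release 112 (mRatBN7.2), with reversely stranded pairs and both ends mapped, after alignment with STAR. Pairs that map to several places are left out by this counting. The filters and log scale of the study's methods are not in these counts.

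Genes averaging at least 5 counts were scaled by TMM and fitted with edgeR 4.0.16 in R 4.3.3 by the quasi-likelihood test, with 1 mean per group over 12 libraries and no replicate block. The Benjamini-Hochberg adjustment ran over 13348 genes. The SE is the size of the log2 fold change divided by the root of F. DESeq2 1.42.0 was an alternative. Levels are CPM scaled by TMM. For likeness, log2 CPM had a prior count of 2.

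Symbols were matched on the mean of normalized counts and the sign and size of the fold change: 1775 of 1786 entries met 1 gene, and 1757 of 1758 lay on the same chromosome in RefSeq. No value of the list is given. No 2 libraries of a group agreed within sampling noise. The members and the lists were chosen with earlier results of these data known. Named were the 7 members, the listed pathway genes with a symbol and the 8 genes most like the members by each measure, and 1 gene or more that the rule gives is not reported here. Same-numbered CTL and GAL libraries deviated together (r from 0.26 to 0.60), while those of other groups did so weakly or not at all (r from -0.003 to 0.07). For CTL and CTK-2 the r was small (0.03 to 0.07), but pairings of unlike number were all negative. CTL replicate 1 also deviated with GAL replicate 2 (r = 0.23), and CTL replicate 2 with GAL replicate 1 (r = 0.15). The main fit is unpaired, and a fit with the numbers of CTL and GAL as pairs was run beside it.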

Additional observations from a re-analysis of the deposited data

How the results depend on the processing

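In CTK2+GAL versus GAL, all 105 values of the 7 genes under 15 other settings and left-out libraries kept direction and call (log2 fold change -1.27 to -0.67). In CTK-2 versus CTL, whose calls follow from the choice of genes, Pmvk fell short of the fold threshold in 6 settings. With the replicate number as a block, 7 of 7 genes were called in CTK2+GAL versus GAL and 0 in each comparison of galinex, and the pairing of CTL and GAL changed no call of a member. In blocked fits, Pmvk had a log2 fold change of -0.62 in CTK-2 versus CTL, -0.75 in CTK2+GAL versus GAL and 0.14 in GAL versus CTL.

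Signs turned only for galinex and the interaction, where no value was called, and the cause was not tested. Without CTL replicate 3 and GAL replicate 3 (added after seeing the data), Mvk was at -0.0451 and Mvd at -0.0371 in GAL versus CTL. In CTK2+GAL versus CTK-2, Pmvk was at -6.26e-05 with DESeq2 size factors, -0.000263 with filterByExpr and -0.00273 with only the 2 groups fitted. The interaction of Mvd was 0.00276 with no filter. With each library left out in turn, GAL versus CTL ran from -0.022 to 0.094 (Hmgcs1), -0.022 to 0.040 (Mvk) and -0.044 to 0.090 (Mvd), and CTK2+GAL versus CTK-2 from -0.058 to 0.102 (Pmvk) and -0.023 to 0.038 (Mvd). The average of galinex ran from -0.018 to 0.049 (Mvd). The interaction ran from -0.111 to 0.0054 (Acat2), -0.044 to 0.071 (Hmgcs1), -0.082 to 0.051 (Mvd), -0.094 to 0.051 (Idi1) and -0.109 to 0.027 (Fdps).

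Over all genes, dropping the fold threshold raised the calls from 2311 to 5213 in CTK-2 versus CTL and from 2324 to 5290 in CTK2+GAL versus GAL. With no filter, 2 genes were called in GAL versus CTL, 1 in the average and 4 in the interaction, and 4 in GAL versus CTL without CTL replicate 3 and GAL replicate 3, none of them a member. Depth limits Pmvk most, at 115 to 272 counts per library.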
